A study of Mus musculus with 15 samples.

Results

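Mouse embryonic fibroblasts (MEFs) with mutant p53 from a late generation of telomerase-deficient mice were compared with the same genotype from an early generation. The late group, G5TM, had 3 libraries (generation 5, mTR-/-Wrn-/-p53N236S/N236S) and the early group, G1TM, had 2 (generation 1, the same genotype). The rule took these 5 of the 15 libraries by their labels, though the comparison itself was chosen with earlier results of these data known. Both groups lacked mTR (encoded by Terc, the RNA that telomerase copies) and Wrn (the RecQ helicase mutated in Werner syndrome), and both carried p53 N236S on both alleles. The remaining 10 libraries served as a background. They were G3TM (generation 3, the TM genotype, 3 libraries) and the DM cells, which lacked mTR and Wrn in the same way but had wild-type p53 (G5DM with 3 libraries, G3DM with 2 and G1DM with 2). The cells came from midgestation embryos of the same embryonic day in all groups. They were grown at 3% O2, 5% CO2 and 37 °C, in DMEM to which 10% serum was added. PolyA RNA was sequenced. Whether the libraries of a group came from separate embryos was not stated. The p-values measure the spread between libraries, which may in part be technical.

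Telomeres shorten over successive generations of mice without telomerase, so the generation number stands for inherited telomere attrition. p53 responds to damaged telomeres by raising genes of cell cycle arrest and apoptosis. It also acts through its target p21 (Cdkn1a) and the DREAM complex, which represses cell cycle genes in resting cells. The MMB complex (Mybl2 with the MuvB core) and Foxm1 activate the G2/M genes in dividing cells. The title of the study names DREAM/MMB and telomere DNA replication.

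Along the first principal component of log2(FPKM + 1), which held 67.8% of the variance, the 15 libraries fell into 2 sides. G5TM lay at 70.5, 48.2 and 68.0 and G3TM at 30.8 to 75.6, while G1TM lay at -47.8 and -32.9 and DM at -67.9 to -11.6. The 6 libraries of G5TM and G3TM thus stood apart from the other 9, and the comparison of G5TM with G1TM spans this division. No label names a batch. Because one side holds all G5TM and the other all G1TM libraries, no value can be had within a side, and generation and division cannot be told apart here. Levels are in FPKM, fragments per kilobase of gene and per unit of depth, which gave back whole reads, 17448588 to 29571111 per library over the 5. Summed FPKM was 420883, 321044 and 385951 in G5TM and 235622 and 260344 in G1TM, and genes above 0 numbered 20541 to 21306 in G5TM and 22975 to 23329 in G1TM. The sexes also differed. Y-linked genes summed to 3.70 FPKM in G5TM replicate 1 and 0 in the other 4 libraries, and Xist measured 0, 2.45 and 3.61 FPKM in G5TM and 26.9 and 18.1 FPKM in G1TM. The part of sex in the results was not tested.

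Wrn (ENSMUSG00000031583, chromosome 8, 33234384 to 33385527) measured 0.113, 0.196 and 0.118 FPKM in G5TM and 0.466 and 0.275 FPKM in G1TM. Terc was listed at 0 in all 5 libraries. Both lay below the filter for testing. Trp53 (ENSMUSG00000059552, chromosome 11, 69580359 to 69591873) measured 78.7, 53.2 and 91.3 FPKM in G5TM and 42.0 and 53.8 FPKM in G1TM, with overlapping groups. Its difference of 0.60 log2 (SE 0.32) did not pass the test (limma, adjusted p = 0.12), and its sign turned under quantile normalization.

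A gene was tested where 2 or more of the 5 libraries reached 1 FPKM, which held for 12092 of the 54495 listed. With limma on log2(FPKM + 1) and a threshold of 0.05 on the adjusted p, 6639 genes were called (54.9% of those tested). Of these, 3558 were higher in G5TM (29.4%) and 3081 lower (25.5%). The difference exceeded 1 log2 unit for 3634 of the called genes and 2 log2 units for 497. G5TM and G1TM did not overlap for 9152 genes (75.7% of those tested). The filter let in 681 genes with no G1TM library at 1 FPKM, of which 475 were called higher, and 630 with no G5TM library at 1 FPKM, of which 516 were called lower. For such genes the filter favours a difference. Among those named below, Rrp7a, Rrp12, mt-Rnr1, Mylpf, Sox2, Sp7, Gm10020 and Gm3591 were let in through G5TM. Depdc1a, Atm and Hist1h2ap were let in through G1TM. The count depended on both G1TM libraries. Leaving out either left a lone G1TM library, assumed to vary like the other groups, and fewer genes were called. The drop was larger without G1TM replicate 1. The median of all genes was 0.066 log2 without G1TM replicate 1 and 0.108 log2 without G1TM replicate 2. The scaling set the balance. As deposited, 53.6% of called genes were higher in G5TM, while after rescaling each library to TPM 28.2% were higher, with 1939 higher and 4928 lower. The median of all genes lay at 0.09 log2 as deposited, at -0.46 after rescaling to TPM and at -0.016 after quantile normalization. A list's change is therefore given below with its counts under these scalings where its balance turned. For a single gene, an exact permutation test of 3 against 2 libraries could not give a two-sided p below 0.1, so the p-values rest on the fit across all genes. On the log2(FPKM + 1) scale the change of low genes is understated.

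To see which classes follow the division, the 10 libraries outside the comparison were used. A called gene was said to follow it where all 3 G3TM libraries lay beyond all 7 DM libraries in the direction of the G5TM minus G1TM difference. Among all genes tested, 24.7% had G3TM above all DM and 14% had G3TM below all DM. Of the called genes, 3202 followed (48.2%), 62 went the opposite way and 3375 did neither. The share was 60.1% of the genes higher in G5TM and 34.5% of those lower. G3TM replicate 1 decided much of this: without it 5057 genes followed, 77.9% of the higher and 66.4% of the lower. G3TM and DM also differ in p53 genotype, so for p53-dependent genes the division and the genotype cannot be told apart.

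**Figure D1:**
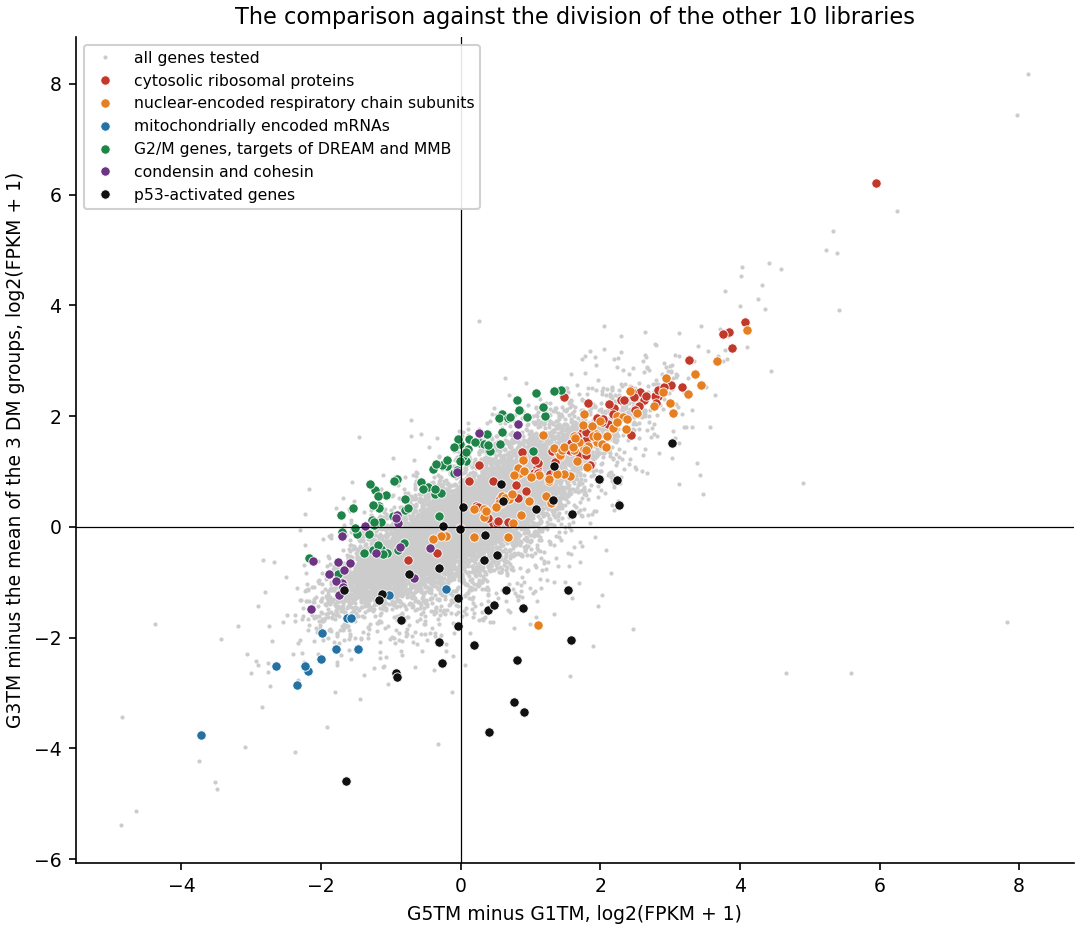
Each point is a gene, with the G5TM minus G1TM difference on the x axis and the difference between G3TM and the mean of the 3 DM groups on the y axis, both in log2(FPKM + 1); colours mark 6 gene lists and grey all 12092 genes tested. Ribosomal protein and respiratory chain genes lie at the upper right and mitochondrial mRNAs at the lower left, the G2/M genes lie along the upper edge of the cloud, and many p53-activated genes lie below it.

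Genes of the cytosolic ribosome were higher in G5TM. Of 85 ribosomal protein genes tested, 68 rose and 0 fell, with a median difference of 1.75 log2 against 0.09 over all genes, and 63 of the 68 followed the division. Their summed level was 71091, 44977 and 53936 FPKM in G5TM against 14778 and 17941 FPKM in G1TM. The largest difference was that of Rpl12 (ENSMUSG00000038900, chromosome 2, 32961559 to 32965345), a protein of the large subunit, with 610, 382 and 441 FPKM in G5TM and 6.40 and 6.77 FPKM in G1TM (5.95 log2, SE 0.27, adjusted p = 1.4e-08). G3TM lay at 300.4, 569 and 483 FPKM and the 7 DM libraries between 3.84 and 6.19 FPKM, so the 2 sides were far apart outside the comparison too. Rps29, of the small subunit, had 866, 519 and 579 FPKM in G5TM and 34.7 and 39.5 FPKM in G1TM (4.07 log2, SE 0.39, adjusted p = 1.9e-05). Rps21 had 1245, 942 and 767 FPKM in G5TM and 59.1 and 70.4 FPKM in G1TM (3.88 log2, SE 0.33, adjusted p = 8.4e-06). Both lay on the same 2 levels in G3TM and DM. The list kept its direction under quantile normalization (59 higher, 5 lower), TPM (60 and 3) and after removal of a trend on gene length and GC content (64 and 0). Of 272 listed processed pseudogenes of these genes, 74 passed the filter, and 51 were called higher and 0 lower; reads of pseudogenes and parent genes could be split by the counting, so these are uncertain, and 29 were called without G1TM replicate 1.

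Of 58 genes for rRNA processing and nucleolar factors, 18 rose (31.0%) and 12 fell (20.7%), near the 29.4% and 25.5% of all genes tested. All 18 that rose followed the division and none of the 12 that fell did. G3TM lay below all DM in 0 of the 58, so no fall could count as following. Under TPM the list had 13 higher and 24 lower, and under quantile normalization 14 higher and 20 lower, so no direction holds for it as a whole; without G1TM replicate 1 it had 10 higher and 3 lower. Rrp1 and Rrp9 process pre-rRNA. Rrp1 (ENSMUSG00000061032, chromosome 10, 78400384 to 78413043) had 102, 73.5 and 94.1 FPKM in G5TM and 1.44 and 1.04 FPKM in G1TM (5.33 log2, SE 0.21, adjusted p = 3e-09). Rrp9 had 70.3, 29.2 and 85.5 FPKM in G5TM and 2.43 and 2.65 FPKM in G1TM (4.01 log2, SE 0.44, adjusted p = 5.1e-05). Rrp7a had 38.4, 23.4 and 41.0 FPKM in G5TM and 0.723 and 0.709 FPKM in G1TM, and Rrp12 had 19.4, 9.70 and 33.4 FPKM in G5TM and 0.410 and 0.428 FPKM in G1TM. Both passed the filter through G5TM alone, so their values are a description. Each of these 4 genes followed the division. Of 13 snoRNA host genes tested, 7 rose and 0 fell, among them Snhg8 with 37.8, 29.0 and 24.4 FPKM in G5TM and 3.96 and 4.69 FPKM in G1TM (2.54 log2, SE 0.21, adjusted p = 6.6e-06). Of 43 translation initiation and elongation factors, 15 rose and 11 fell as deposited, while 9 rose and 20 fell under TPM, 8 and 20 under quantile normalization, and 4 and 6 without G1TM replicate 1. As deposited the shares of these factors were 34.9% higher and 25.6% lower, near the 29.4% and 25.5% of all genes tested. Eif6, which keeps the large subunit from joining early, rose by 2.21 log2 (limma, SE 0.44, adjusted p = 0.0017). It had 198, 122 and 253 FPKM in G5TM and 33.4 and 44.8 FPKM in G1TM.

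Nuclear and mitochondrial genes of the respiratory chain moved in opposite directions. Of 82 nuclear-encoded subunits tested, 65 rose and 0 fell (median 1.48 log2), and 52 of the 65 followed the division. Of the 13 mRNAs encoded in mitochondrial DNA, 12 fell and 0 rose (median -1.98 log2), and 11 of the 12 followed. Atp5k, a subunit of ATP synthase, had 143, 92.7 and 110 FPKM in G5TM and 6.01 and 5.30 FPKM in G1TM (4.11 log2, SE 0.38, adjusted p = 1.6e-05). Ndufa3, of complex I, had 119, 83.4 and 87.1 FPKM in G5TM and 6.24 and 6.91 FPKM in G1TM (3.67 log2, SE 0.24, adjusted p = 6.3e-07). mt-Co1, the core subunit of cytochrome c oxidase (mitochondrial genome, 5328 to 6872), had 1002, 1179 and 839 FPKM in G5TM and 3873 and 4026 FPKM in G1TM (-1.98 log2, SE 0.29, adjusted p = 0.00029). In none of these 3 genes did the groups overlap, and G3TM lay with G5TM. mt-Nd5 and mt-Nd4l, subunits of complex I, fell by 2.65 and 3.72 log2 (SE 0.27 and 0.27, adjusted p = 2.8e-05 and 1.8e-06); mt-Nd4l is short and overlaps its neighbour mt-Nd4, so its reads are uncertain. The 2 ribosomal RNAs of mitochondria went the other way. mt-Rnr2 had 62.6, 73.6 and 48.9 FPKM in G5TM and 1.72 and 2.85 FPKM in G1TM (4.26 log2, SE 0.24, adjusted p = 1.8e-07), and mt-Rnr1 had 60, 77.8 and 46.8 FPKM in G5TM and 0.517 and 0.740 FPKM in G1TM. These RNAs carry no long polyA tail, and the libraries were made from polyA RNA. Of 74 mitochondrial ribosomal protein genes, which are encoded in the nucleus, 51 rose and 3 fell, and 46 of the 51 followed the division. Mrps24 and Mrpl14 rose by 2.54 and 2.47 log2 (SE 0.40 and 0.36, adjusted p = 0.00041 and 0.00028). Without G1TM replicate 1 the mitochondrial ribosomal list had 32 higher. The directions of these 3 protein lists held under TPM, quantile normalization and removal of the length and GC trend.

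**Figure D2:**
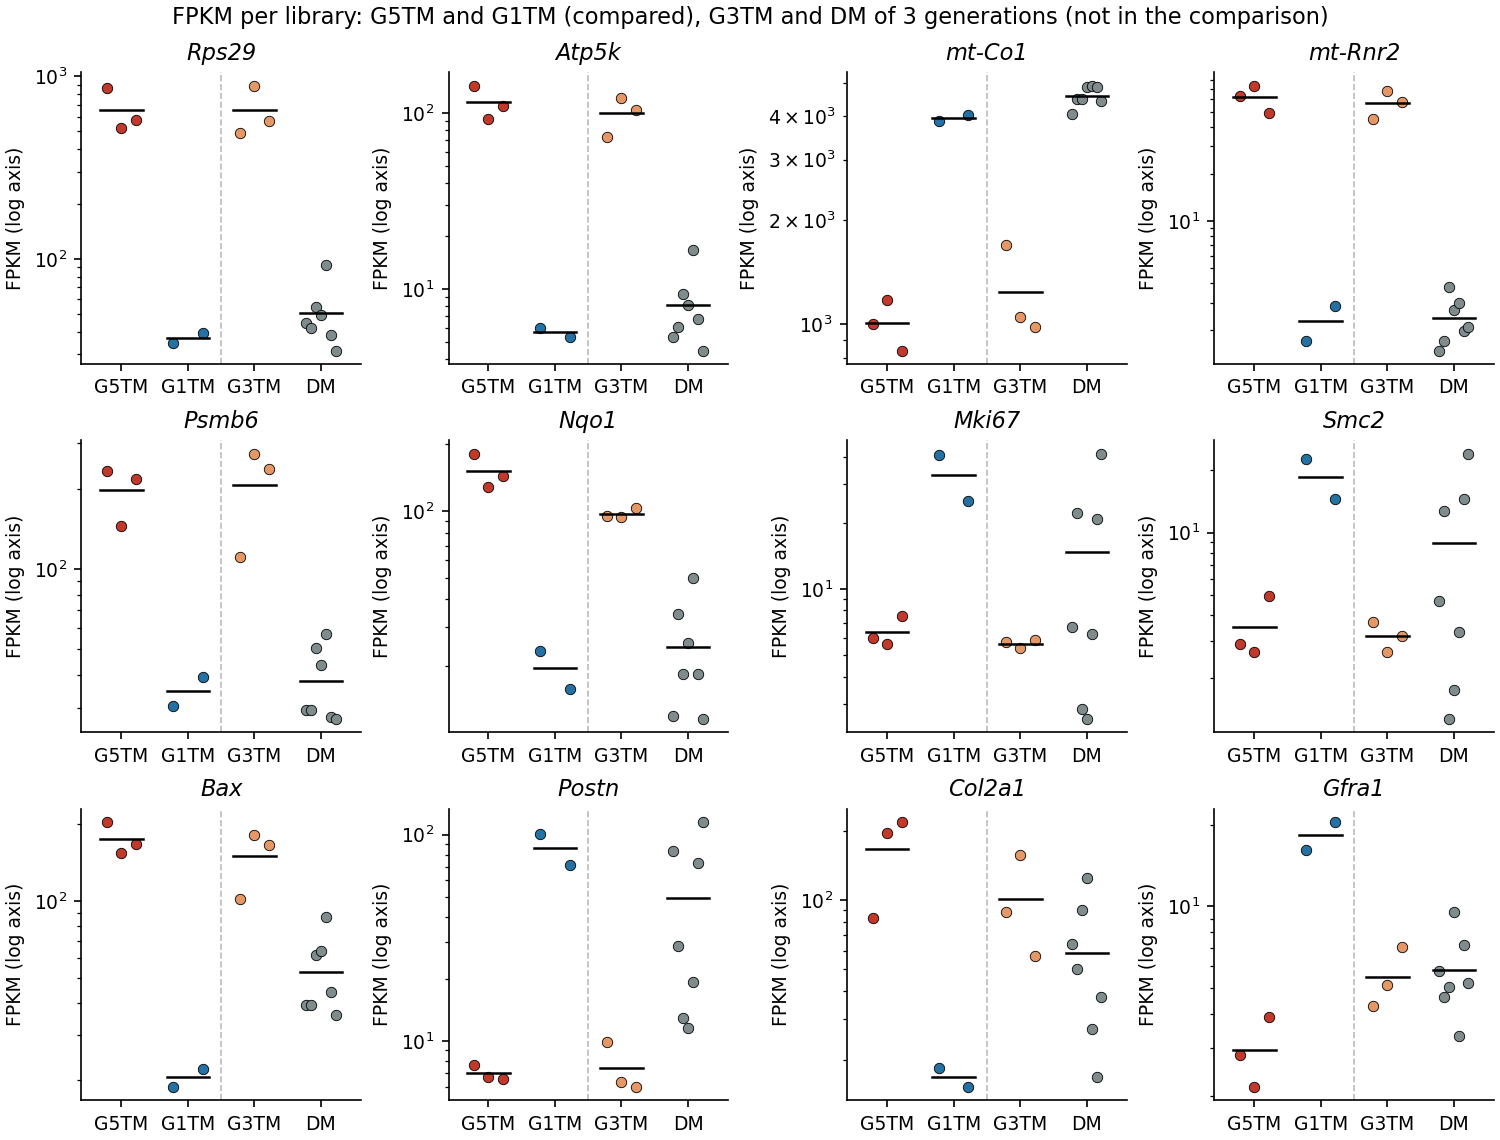
FPKM of 12 genes in each library, on log axes with one range per gene; points are libraries, bars group means, and the dashed line sets off G3TM and the 7 DM libraries, which are not in the comparison. In Rps29, Atp5k, mt-Co1, mt-Rnr2, Psmb6, Nqo1, Bax and Postn the G3TM libraries lie with G5TM and apart from DM, while in Mki67, Smc2, Col2a1 and Gfra1 the DM libraries overlap G3TM.

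Proteasome and antioxidant genes rose as well. Of 40 proteasome subunits, 26 rose and 3 fell (median 0.84 log2), and 20 of the 26 followed the division; without G1TM replicate 1, 12 rose and 2 fell. The catalytic subunit Psmb6 had 234, 146 and 219 FPKM in G5TM and 30.5 and 39.1 FPKM in G1TM (2.47 log2, SE 0.39, adjusted p = 0.00043). Psmb5, another catalytic subunit, rose by 2.14 log2 (SE 0.41, adjusted p = 0.0014). Of 26 genes of the NRF2 and glutathione list, 17 rose and 1 fell (median 0.94 log2), and 9 of the 17 followed; 8 rose without G1TM replicate 1 and 10 without G1TM replicate 2. Nqo1, the quinone reductase often used as an NRF2 reporter (ENSMUSG00000003849, chromosome 8, 107388225 to 107403206), had 182, 128 and 145 FPKM in G5TM and 23.4 and 15.9 FPKM in G1TM (2.90 log2, SE 0.49, adjusted p = 0.00069). Gsta4 and Gstp1, glutathione S-transferases, rose by 3.22 and 2.22 log2 (SE 0.38 and 0.37, adjusted p = 7.6e-05 and 0.00058). The member that fell was Nfe2l2, the gene of NRF2 itself, with 18, 13.0 and 14.0 FPKM in G5TM and 24.5 and 25.9 FPKM in G1TM (-0.72 log2, SE 0.19, adjusted p = 0.0078); it was named after its values were seen, and its call was lost without G1TM replicate 2 and with the length and GC trend removed. Among 33 cytosolic and mitochondrial chaperones, 9 rose and 5 fell, against 5 and 12 under TPM, 7 and 11 under quantile normalization and 3 and 1 without G1TM replicate 1. As deposited the shares of the chaperones were 27.3% higher and 15.2% lower, beside 29.4% and 25.5% of all genes tested. Hsp90aa1, the inducible cytosolic Hsp90 (ENSMUSG00000021270, chromosome 12, 110690605 to 110702728), had 66.8, 40.4 and 73.2 FPKM in G5TM and 2.09 and 1.48 FPKM in G1TM (limma, 4.42 log2, SE 0.27, adjusted p = 4.9e-07), and followed the division. Hspb1, a small heat shock protein, rose by 2.70 log2 (SE 0.43, adjusted p = 0.00044).

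The activators Mybl2 and Foxm1 did not pass the test. Mybl2, the MMB subunit, had 22.3, 10.6 and 30.9 FPKM in G5TM and 10.4 and 14.3 FPKM in G1TM (0.63 log2, SE 0.44, adjusted p = 0.24). Foxm1 had 25.8, 20.4 and 32.1 FPKM in G5TM and 31.1 and 33.2 FPKM in G1TM (-0.31 log2, SE 0.26, adjusted p = 0.33). In both genes the groups overlapped. Of 14 genes listed for both complexes, 1 rose (7.1%) and 4 fell (28.6%), beside 29.4% and 25.5% of all genes tested. The list holds the kinase gene Dyrk1a besides subunits. Lin37, of the MuvB core, rose in G5TM (12.5, 11.1 and 12.6 FPKM, against 4.42 and 4.39 FPKM in G1TM; 1.27 log2, SE 0.28, adjusted p = 0.0029). Rbl1, the pocket protein p107, fell (2.21, 1.86 and 2.66 FPKM in G5TM, against 7.22 and 6.35 FPKM in G1TM; -1.27 log2, SE 0.25, adjusted p = 0.0014). Lin54, the DNA-binding subunit, fell by 1.25 log2 (SE 0.26, adjusted p = 0.002), and Lin9 and the kinase gene Dyrk1a each fell by 0.68 log2 (SE 0.23 and 0.17, adjusted p = 0.024 and 0.0052). Lin9 and Dyrk1a were named after their values were seen, and both calls were lost without G1TM replicate 1. With the length and GC trend removed Lin37, Rbl1, Lin54 and Dyrk1a were not called, and the sign of Lin9 was turned.

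G2/M genes were split. Of 79 targets of DREAM and MMB tested, 29 fell (36.7%) and 9 rose (11.4%), beside 25.5% and 29.4% of all genes tested. Their median was -0.35 log2, while the median difference between G3TM and DM was 0.87 log2. All 9 that rose followed the division. None of the 29 that fell did, and 1 of them, Hjurp (named after its values were seen), went the opposite way. G3TM lay above all DM in 43 of the 79 genes and below all DM in 0, so no fall could count as following. The median difference between G5TM and G3TM over the list was -0.10 log2. Mki67, the proliferation marker Ki-67 (ENSMUSG00000031004, chromosome 7, 135689784 to 135716361), had 6.02, 5.60 and 7.51 FPKM in G5TM and 40.9 and 25.1 FPKM in G1TM (-2.17 log2, SE 0.57, adjusted p = 0.0068). The 3 G3TM libraries had 5.75, 5.37 and 5.85 FPKM, and the DM libraries ranged from 2.57 to 41.3 FPKM, so all TM libraries lay within the range of DM. Kif11, the kinesin that separates spindle poles, had 4.86, 4.69 and 5.89 FPKM in G5TM and 22.4 and 16.2 FPKM in G1TM (-1.71 log2, SE 0.46, adjusted p = 0.0081). Depdc1a, let in through G1TM, had 0.977, 0.481 and 0.842 FPKM in G5TM and 4.5 and 5.38 FPKM in G1TM. Cdc20, the activator of the anaphase-promoting complex, is an example of those that rose, named after its values were seen: 195, 132 and 263 FPKM in G5TM against 65.0 and 74.1 FPKM in G1TM (1.43 log2, SE 0.34, adjusted p = 0.0042). Its G3TM libraries had 158, 258 and 260 FPKM and its DM libraries 25.7 to 50.4 FPKM. With the length and GC trend removed Cdc20 (0.52 log2, adjusted p = 0.17) and Mki67 (-1.33 log2, adjusted p = 0.061) were not called by limma. The calls of Mki67 and Kif11 were lost without G1TM replicate 1, which left 4 genes of the list higher and 8 lower; without G5TM replicate 2 there were 15 higher and 22 lower. Under TPM 5 rose and 44 fell, under quantile normalization 4 and 35, and with the length and GC trend removed 13 rose and 9 fell, with a median of -0.06 log2. The balance of the list thus turned with the trend removed.

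Promoters of 3 of these genes are printed because the list is defined by factors that bind there; Mki67 and Kif11 fell and Cdc20 rose as deposited, and of the 3 Kif11 kept its call with the length and GC trend removed. The sequences are from RefSeq (GRCm38.p6) and give the 250 bases before the start of transcription, on the strand of the gene. Capitals mark the cell cycle homology region core TTTGAA, to which the MuvB core binds, and the CCAAT box, to which NF-Y binds, on either strand (TTCAAA and ATTGG on the other); no 2 matches overlap. Mki67 is at chr7:135716380-135716629, minus strand, Kif11 at chr19:37376132-37376381, plus strand, and Cdc20 at chr4:118437344-118437593, minus strand.
Mki67: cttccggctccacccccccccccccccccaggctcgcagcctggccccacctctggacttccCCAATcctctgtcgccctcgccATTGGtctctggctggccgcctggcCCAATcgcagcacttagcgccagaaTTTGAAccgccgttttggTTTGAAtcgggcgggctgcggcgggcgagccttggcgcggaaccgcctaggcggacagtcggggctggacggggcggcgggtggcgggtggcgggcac
Kif11: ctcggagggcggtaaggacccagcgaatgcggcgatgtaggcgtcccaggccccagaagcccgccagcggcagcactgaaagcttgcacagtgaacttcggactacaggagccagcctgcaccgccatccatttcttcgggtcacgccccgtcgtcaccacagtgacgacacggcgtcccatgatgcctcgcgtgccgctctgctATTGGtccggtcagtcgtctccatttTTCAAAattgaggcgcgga
Cdc20: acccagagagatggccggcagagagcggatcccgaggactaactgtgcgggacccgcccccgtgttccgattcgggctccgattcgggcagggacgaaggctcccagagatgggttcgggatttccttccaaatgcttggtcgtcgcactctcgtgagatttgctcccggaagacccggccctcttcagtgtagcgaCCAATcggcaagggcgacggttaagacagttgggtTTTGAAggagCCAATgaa
The core began 98 and 116 bases before the start in Mki67, 19 in Kif11 and 18 in Cdc20. Over the first listed promoter of 8654 tested genes that matched by symbol, 10.1% held TTTGAA and 36.7% held CCAAT. Of 65 matched G2/M genes, 23 held TTTGAA (35.4%) and 48 held CCAAT (73.8%). TTTGAA stood in 4 of the 7 matched members that rose, in 8 of the 27 that fell and in 11 of the 31 not called. Genes that rose and genes that fell thus both hold the core in part; a match is a description of the letters and no measure of binding.

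G1/S genes and replication genes were divided in the same way. Of 63 G1/S targets of DREAM and E2F, 9 rose (14.3%), all following the division, and 18 fell (28.6%), none following. All genes tested had 29.4% and 25.5%. G3TM lay above all DM in 37 of the 63 and below all DM in 0, so no fall could count as following. Hells, a chromatin remodeller, and Ccne2, cyclin E2, fell by 1.69 and 1.56 log2 (SE 0.43 and 0.33, adjusted p = 0.0061 and 0.0021). Usp1, the deubiquitinase of the Fanconi pathway, had 14.1, 12.4 and 12.0 FPKM in G5TM and 41.1 and 37.4 FPKM in G1TM (-1.55 log2, SE 0.30, adjusted p = 0.0014). Tk1, thymidine kinase, rose by 1.48 log2 (SE 0.34, adjusted p = 0.0034) and was named after its values were seen. Under TPM 4 rose and 29 fell, with the length and GC trend removed 8 rose and 2 fell, without G5TM replicate 2 it had 15 higher and 12 lower, and without G1TM replicate 1 it had 5 higher and 4 lower. Of 37 genes of telomere DNA replication, 13 rose, 12 of them following, and 6 fell; under TPM 4 rose and 14 fell, and without G1TM replicate 1 4 rose and 3 fell. As deposited the shares of this list were 35.1% higher and 16.2% lower, beside 29.4% and 25.5% of all genes tested. The polymerase delta subunit Pold2 had 150, 106 and 164 FPKM in G5TM and 25.9 and 28.5 FPKM in G1TM (limma, 2.30 log2, SE 0.35, adjusted p = 0.00036). Pola1, the catalytic subunit of polymerase alpha, had 1.05, 0.832 and 1.10 FPKM in G5TM and 5.51 and 3.55 FPKM in G1TM (-1.45 log2, SE 0.34, adjusted p = 0.0035). Of 17 shelterin and telomerase components, 6 rose and 0 fell as deposited, 5 of the 6 following, while 5 rose and 7 fell under TPM and 3 rose without G1TM replicate 1. The shares of these components were 35.3% higher and 0% lower as deposited, beside the same 29.4% and 25.5%. Nop10, Nhp2 and Gar1, proteins of the H/ACA particles that include telomerase, rose by 2.61, 1.97 and 1.77 log2 (limma, SE 0.32, 0.52 and 0.28, adjusted p = 0.00011, 0.0069 and 0.00042). The calls of Hells, Pola1 and Nhp2 were lost without G1TM replicate 1 and with the length and GC trend removed.

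Among genes of chromosome structure and repair more fell than rose as deposited. All genes tested had 25.5% lower and 29.4% higher. Of 23 condensin and cohesin genes, 18 fell (78.3%) and 1 rose (4.3%), with a median of -1.38 log2. Of the 18, 2 followed. Over the list 3 followed, and 7 without G3TM replicate 1. Smc2, a core subunit of condensin (ENSMUSG00000028312, chromosome 4, 52439243 to 52488260), had 2.91, 2.68 and 4.93 FPKM in G5TM and 22.6 and 14.5 FPKM in G1TM (-2.12 log2, SE 0.56, adjusted p = 0.0074). G3TM had 3.72, 2.67 and 3.20 FPKM and DM 1.28 to 23.9 FPKM, so the G5TM and G3TM libraries lay inside the wide range of DM. Smc4, its partner, fell by 1.88 log2 (SE 0.53, adjusted p = 0.0099), and Stag2, of cohesin, by 2.15 log2 (SE 0.37, adjusted p = 0.00079). Of 36 genes of homologous recombination and the Fanconi pathway, 17 fell (47.2%) and 5 rose (13.9%). Of 18 DNA damage checkpoint genes, 11 fell (61.1%) and 3 rose (16.7%). Atm, the kinase that senses double-strand breaks, had 0.569, 0.720 and 0.996 FPKM in G5TM and 6.08 and 4.60 FPKM in G1TM, and was let in through G1TM. Rad50 and Rbbp8, which process break ends, fell by 1.24 and 1.43 log2 (SE 0.28 and 0.34, adjusted p = 0.0033 and 0.0043), while H2afx, the histone variant phosphorylated at breaks, rose by 1.57 log2 (SE 0.34, adjusted p = 0.0024), a call lost with the length and GC trend removed (adjusted p = 0.55). These lists hold long, low-GC genes: the median length was 6648 bases and the median GC content 42.3% for condensin and cohesin, against 3988 bases and 50.1% over all genes tested. With the length and GC trend removed, 0 rose and 4 fell among condensin and cohesin genes, 6 and 5 among recombination genes and 4 and 3 among checkpoint genes. The call of Smc4 was lost in that fit too. The calls of Smc2 and Smc4 were lost without G1TM replicate 1, and there were then 8 genes lower among condensin and cohesin, 5 among recombination and 3 among checkpoint genes.

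**Figure D3:**
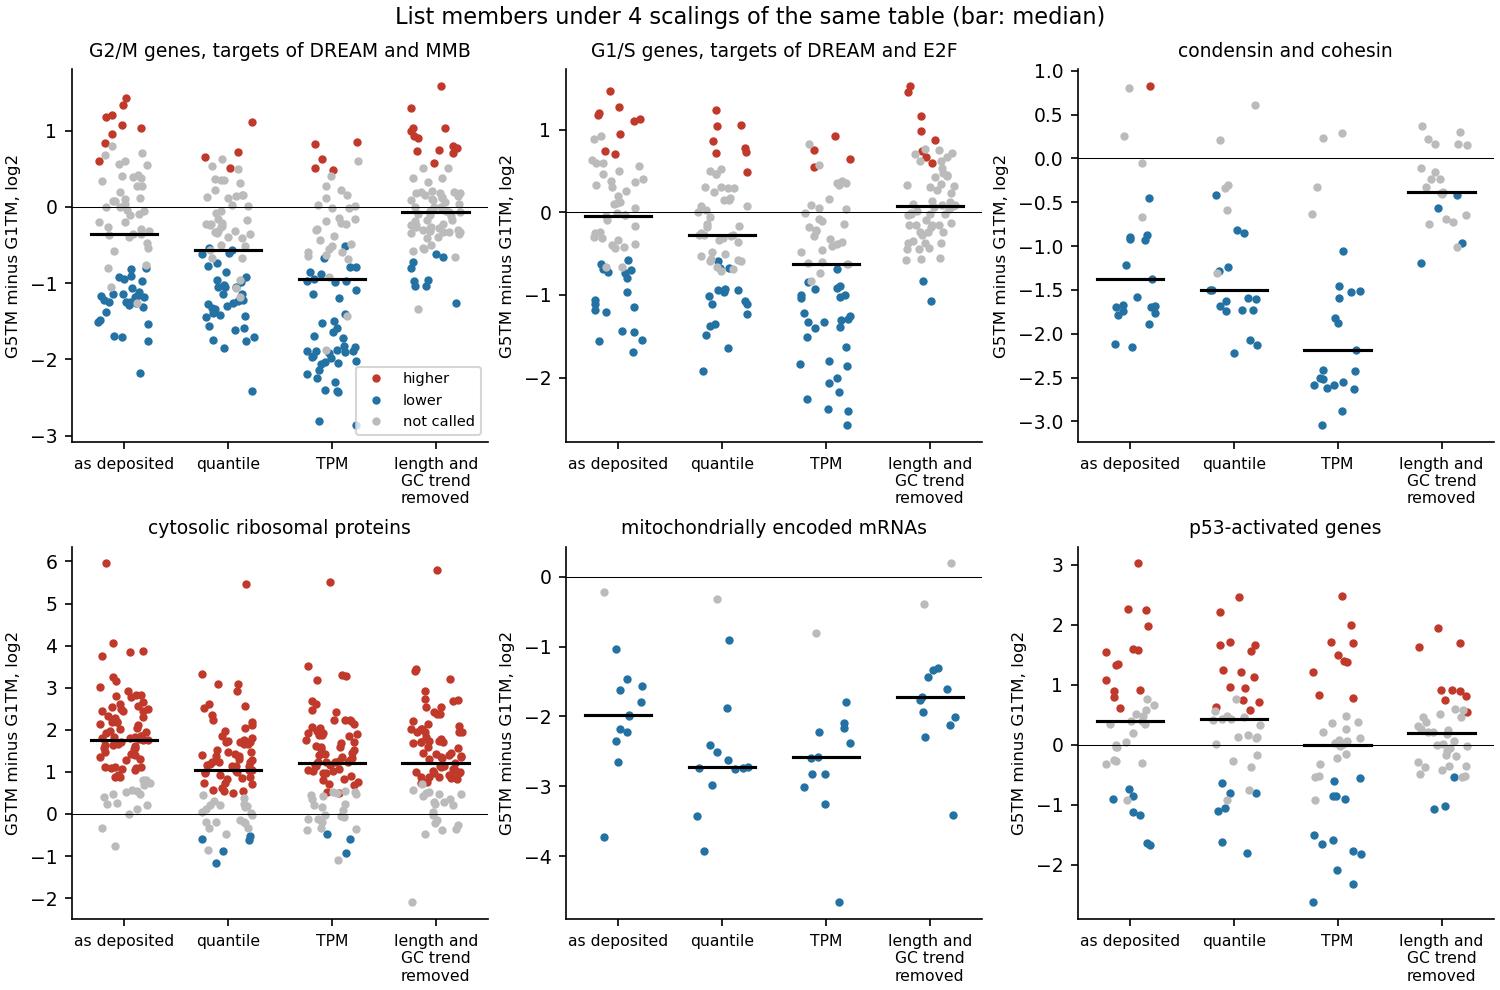
G5TM minus G1TM differences in log2 of the members of 6 lists, under 4 scalings of one table; points are genes coloured by their call (higher, lower or not called), and bars are medians. Ribosomal protein genes stay mostly higher and mitochondrial mRNAs lower under all 4, while the 29 G2/M genes lower as deposited become 9 when the length and GC trend is removed.

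Of 47 listed genes activated by p53, 40 passed the filter; 14 rose (35%) and 7 fell (17.5%), beside 29.4% and 25.5% of all genes tested, with a median of 0.40 log2, whereas the median difference between G3TM and DM, which spans the p53 genotype, was -1.14 log2. Under TPM 10 rose and 13 fell, and without G1TM replicate 1 10 rose and 2 fell. Cdkn1a, the cell cycle inhibitor p21, had 7.38, 8.03 and 12.8 FPKM in G5TM and 4.22 and 5.90 FPKM in G1TM (0.76 log2, SE 0.49, adjusted p = 0.2), against 86.2 to 216 FPKM in DM. Mdm2, the ubiquitin ligase of p53, had 4.80, 5.40 and 3.50 FPKM in G5TM and 9.90 and 9.04 FPKM in G1TM (-0.93 log2, SE 0.41, adjusted p = 0.069), against 16.4 to 50.6 FPKM in DM. Neither passed the test. Apoptosis genes were among those that rose. Bax (ENSMUSG00000003873, chromosome 7, 45461697 to 45466898), which permeabilizes mitochondria, had 203, 154 and 167 FPKM in G5TM and 18.9 and 22.2 FPKM in G1TM (3.02 log2, SE 0.33, adjusted p = 4.6e-05) and followed the division. Bbc3, the BH3-only protein PUMA, had 12.9, 18.5 and 10.5 FPKM in G5TM and 2.00 and 2.19 FPKM in G1TM (2.24 log2, SE 0.37, adjusted p = 0.00059). Phlda3, an inhibitor of Akt, rose by 2.26 log2 (SE 0.41, adjusted p = 0.00097). Bbc3 and Phlda3 did not follow the division, also without G3TM replicate 1: their DM libraries lay at 3.86 to 10.1 and 56.7 to 158 FPKM, above both G1TM libraries. Of the 7 that fell, 6 followed, among them Ccng1, cyclin G1, and Pmaip1, the BH3-only protein NOXA (-1.65 and -0.91 log2, SE 0.33 and 0.27, adjusted p = 0.0017 and 0.014). Of the 14 that rose, 3 followed and 5 went the opposite way: Psrc1, Sulf2, Ddit4l, Dcxr and Ephx1. Dcxr had 6.96, 9.92 and 3.85 FPKM in G5TM and 1.51 and 1.5 FPKM in G1TM (1.58 log2, SE 0.34, adjusted p = 0.0025), against 12.1 to 39.0 FPKM in DM. Ephx1, microsomal epoxide hydrolase, rose by 0.91 log2 (SE 0.30, adjusted p = 0.021). Ccng1, Pmaip1 and these 5 were named after their values were seen, and the calls of Pmaip1, Ephx1 and Dcxr were lost with the length and GC trend removed (adjusted p = 0.53 for Dcxr and 0.6 for Ephx1). Those of Pmaip1 and Ephx1 were also lost without either G1TM replicate, and that of Ephx1 under TPM and without G5TM replicate 2. Cdkn2a (ENSMUSG00000044303, chromosome 4, 89274471 to 89294653), whose products p16 and p19Arf restrain the cell cycle, had 114, 144 and 34.9 FPKM in G5TM and 22.3 and 20.7 FPKM in G1TM (1.91 log2, SE 0.62, adjusted p = 0.021). It did not follow the division, and its call was lost without either G1TM replicate, without G5TM replicate 1 or 2, and under TPM, quantile normalization and removal of the length and GC trend.

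More matrix genes of fibroblasts fell than rose. Of 51 tested, 21 fell (41.2%), 4 rose (7.8%) and 26 were not called (median -0.42 log2). All genes tested had 25.5% lower and 29.4% higher. Of the 21 that fell, 12 followed the division. With the length and GC trend removed 16 fell and 2 rose. The median was -0.39 log2 without G1TM replicate 1 and -0.27 log2 without G1TM replicate 2. Postn, periostin (ENSMUSG00000027750, chromosome 3, 54361109 to 54391037), had 7.62, 6.69 and 6.53 FPKM in G5TM and 101 and 71.5 FPKM in G1TM (-3.44 log2, SE 0.57, adjusted p = 0.00061). Col12a1, a collagen of fibril surfaces, fell by 2.11 log2 (SE 0.33, adjusted p = 0.00042). S100a4, a calcium-binding protein of motile fibroblasts, was an exception with 36.1, 34.3 and 13.9 FPKM in G5TM and 5.07 and 4.95 FPKM in G1TM (2.16 log2, SE 0.52, adjusted p = 0.0045), and did not follow. Of 9 small leucine-rich proteoglycans, which bind collagen fibrils, 4 fell (44.4%), all following, and 1 rose (11.1%). Their median was -0.91 log2, with and without G1TM replicate 1. Lum had 1.08, 1.85 and 1.22 FPKM in G5TM and 16.3 and 13.0 FPKM in G1TM (-2.72 log2, SE 0.46, adjusted p = 0.00065). Dcn, decorin, and Aspn, asporin, fell by 2.25 and 2.37 log2 (SE 0.41 and 0.68, adjusted p = 0.00097 and 0.011). In the insulin-like growth factor axis, 8 of 16 fell (50%), 6 of them following, and 4 rose (25%). Igfbp5 had 13.8, 40.0 and 15.1 FPKM in G5TM and 130 and 108 FPKM in G1TM (-2.48 log2, SE 0.55, adjusted p = 0.0027), while Igfbp2 had 120, 79.4 and 118 FPKM in G5TM and 22 and 25.9 FPKM in G1TM (2.07 log2, SE 0.68, adjusted p = 0.021). Both are binding proteins of these growth factors, and neither followed. Agtr2, the type 2 angiotensin receptor, and Ahnak, a giant scaffold protein, fell by 2.85 and 3.06 log2 (SE 0.81 and 0.26, adjusted p = 0.01 and 8.5e-06) and followed. The calls of Aspn and Agtr2 were lost without G1TM replicate 1, and that of Igfbp2 without either G1TM replicate or without G5TM replicate 1 or 3, and with the length and GC trend removed.

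The label of fibroblast was checked with fixed markers. The 7 fibroblast markers summed to 2660 to 2873 FPKM in G5TM and 2846 to 3347 FPKM in G1TM; 4 of them were called lower (Col1a2, Col3a1, Thy1 and Pdgfra) and none higher. Markers of other cells moved in the same comparison. Those of cartilage summed to 105 to 261 FPKM in G5TM and 26.5 to 31.9 FPKM in G1TM, with 2 of 3 called higher. Those of skeletal muscle summed to 10.6 to 48.0 FPKM in G5TM and 1.18 to 1.81 FPKM in G1TM, with none of 4 called. Neural markers summed to 85.9 to 133 FPKM in G5TM and 33.2 to 46.1 FPKM in G1TM, with 2 of 4 higher. Tubb3 held most of the sum (110, 77.1 and 109 FPKM in G5TM, 27.9 and 40.8 FPKM in G1TM). The other, Sox2, passed the filter through G5TM alone, so its call is a description. Epithelial markers summed to 7.09 to 19 FPKM in G5TM and 1.68 to 3.22 FPKM in G1TM, with 1 of 3 higher. This was Krt8 (limma, 1.85 log2, SE 0.50, adjusted p = 0.0081), a call lost without G1TM replicate 1 and with the length and GC trend removed. Epcam and Cdh1 stayed under 1 FPKM in all 5 libraries. Smooth muscle markers summed to 955 to 2473 FPKM in G5TM and 1178 to 1908 FPKM in G1TM, with none of 4 called. Bone markers summed to 5.74 to 9.97 FPKM in G5TM and 6.57 to 7.54 FPKM in G1TM. Of the 4, 1 was called higher, Sp7, which passed the filter through G5TM alone. Macrophage markers summed to 3.85 to 12.0 FPKM in G5TM and 2.51 to 4.12 FPKM in G1TM, with none of 4 called. Adipocyte markers summed to 3.17 to 6.24 FPKM in G5TM and 0.711 to 1.39 FPKM in G1TM, with 1 of 3 called higher. This was Pparg (limma, 1.54 log2, adjusted p = 0.0016), while Adipoq and Plin1 stayed under 1 FPKM in all 5 libraries. All 3 endothelial and all 3 erythroid markers stayed under 1 FPKM in all 5 libraries. In bulk cultures fewer cells of a type and less RNA per cell cannot be told apart, and the part of other cells in the results was not tested.

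Of 9 cartilage genes tested, 5 rose and 0 fell (median 1.14 log2), 2 following. Col2a1, the main cartilage collagen (ENSMUSG00000022483, chromosome 15, 97975602 to 98004695), had 83.7, 197 and 219.6 FPKM in G5TM and 18.3 and 15.2 FPKM in G1TM (3.13 log2, SE 0.46, adjusted p = 0.00031). G3TM had 88.6, 157 and 56.6 FPKM and DM 16.7 to 125 FPKM, so the 10 other libraries overlapped. Acan, aggrecan, rose by 2.02 log2 (SE 0.49, adjusted p = 0.0046) and followed. Of 48 transcription factors of limb and mesenchyme, 19 rose (39.6%), 8 of them following, and 9 fell (18.8%), 1 of them following. All genes tested had 29.4% and 25.5%. Under TPM 11 rose and 10 fell, and without G3TM replicate 1 19 of the members followed. Foxd1 had 20.9, 37.3 and 29.8 FPKM in G5TM and 2.22 and 1.73 FPKM in G1TM (3.32 log2, SE 0.39, adjusted p = 7.4e-05). The paired genes Prrx2 and Prrx1, both homeobox factors of limb mesenchyme, went opposite ways: Prrx2 had 225, 146 and 216 FPKM in G5TM and 27.8 and 24.3 FPKM in G1TM (2.84 log2, SE 0.33, adjusted p = 7.4e-05), and Prrx1 had 29.2, 21.2 and 22.5 FPKM in G5TM and 66.9 and 57.4 FPKM in G1TM (-1.33 log2, SE 0.26, adjusted p = 0.0014). Prrx1 was named after its values were seen, and with the length and GC trend removed it was not called. Six2 rose by 2.77 log2 (SE 0.49, adjusted p = 0.00083). Of 38 TGF-beta ligands, receptors and Smads, 11 rose and 11 fell, and 8 and 20 under TPM, 11 and 17 under quantile normalization and 6 and 5 without G1TM replicate 1. As deposited the shares of this list were 28.9% higher and 28.9% lower, near those of all genes tested. The 2 members named here, Id1 and Smad6, are targets of BMP signalling and rose by 2.20 and 2.27 log2 (limma, SE 0.36 and 0.32, adjusted p = 0.00055 and 0.00026), Id1 without following.

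**Figure D4:**
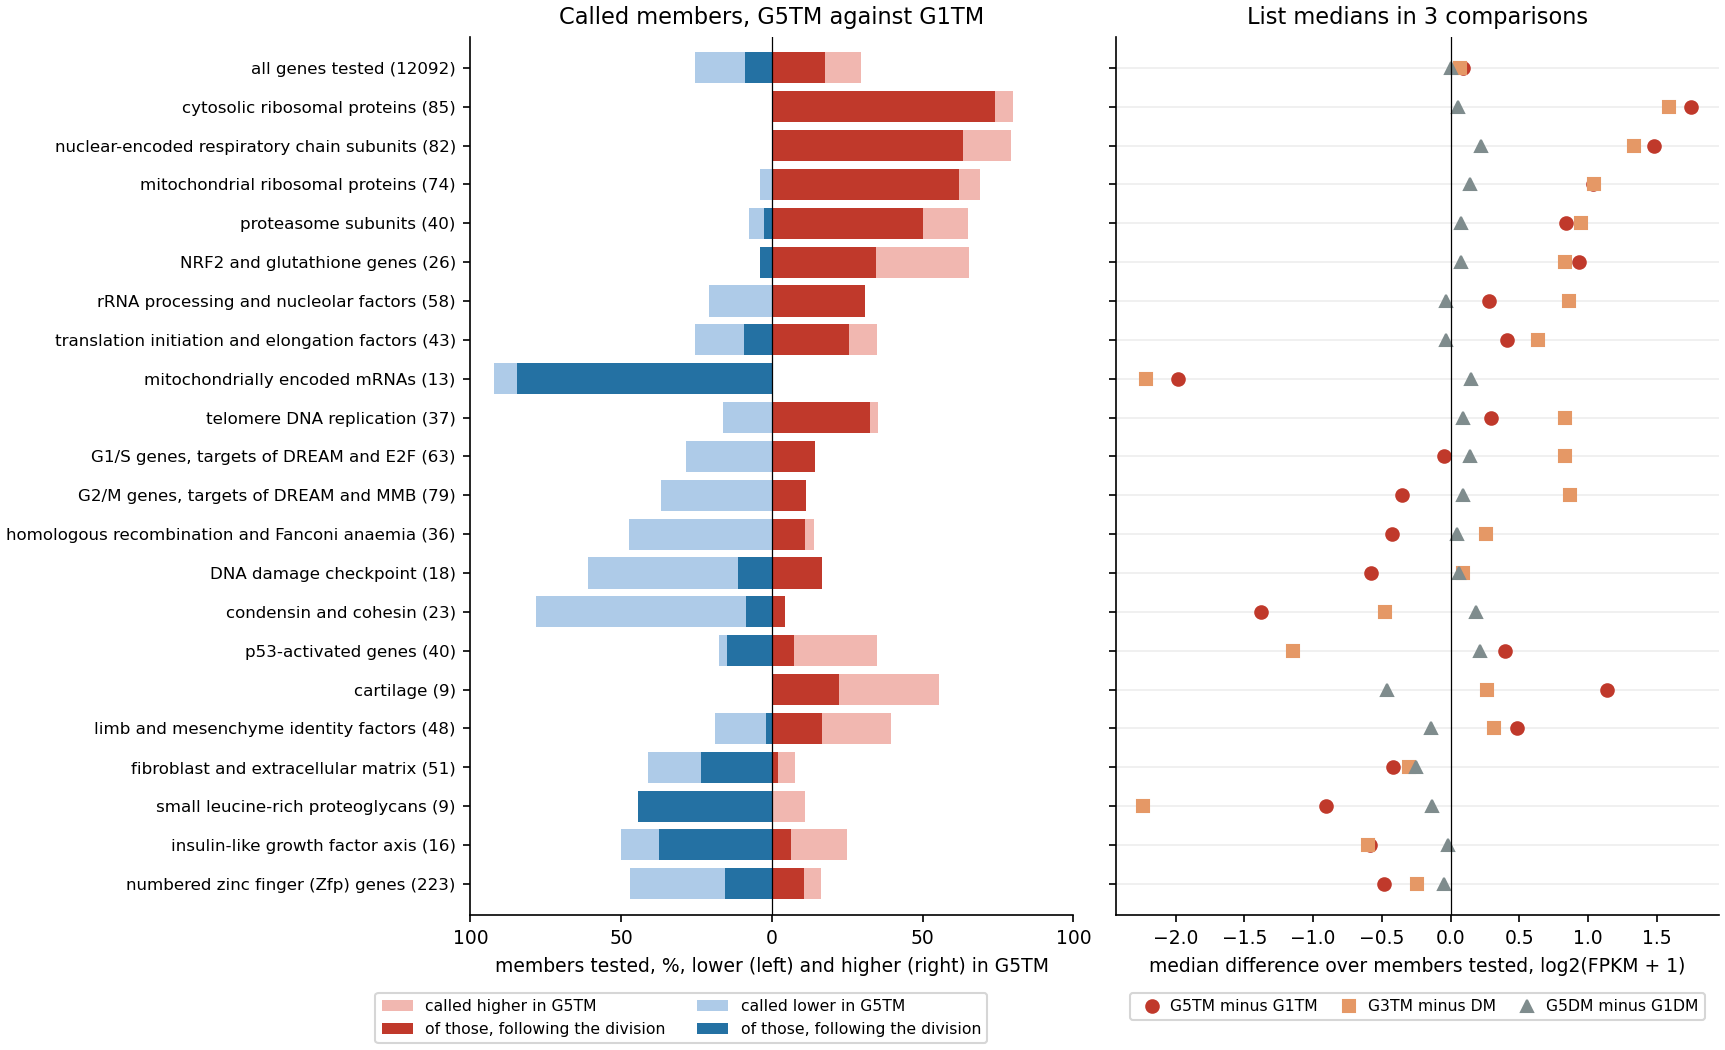
Left, the share of tested members called higher (right of 0) and lower (left of 0) in G5TM for 22 rows, with the part that followed the division in the darker colour and the number tested in brackets; right, the median difference of each row for G5TM minus G1TM, G3TM minus DM and G5DM minus G1DM in log2(FPKM + 1). All or most of the called ribosomal protein, respiratory chain and proteasome genes follow. None of the 29 lower G2/M genes does, and none could, since G3TM lay below all DM for 0 genes of that list. The G5DM minus G1DM medians lie between -0.46 and 0.22.

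Among the largest changes that did not follow the division were Gchfr, Gfra1 and Tfrc. Gchfr, which regulates GTP cyclohydrolase (ENSMUSG00000046814, chromosome 2, 119167773 to 119172390), had 48.0, 54.9 and 37.2 FPKM in G5TM and 2.74 and 4.12 FPKM in G1TM (3.43 log2, SE 0.54, adjusted p = 0.00046). G3TM had 16.6, 7.79 and 19.5 FPKM and DM 2.43 to 14.2 FPKM. The 3 G5TM libraries were the highest of all 15. Gfra1, a receptor for GDNF (ENSMUSG00000025089, chromosome 19, 58235604 to 58455909), had 2.83, 2.15 and 3.89 FPKM in G5TM and 16.2 and 20.5 FPKM in G1TM (-2.30 log2, SE 0.31, adjusted p = 0.00017). G3TM had 4.30, 5.11 and 7.09 FPKM and DM 3.32 to 9.52 FPKM, so the 2 G1TM libraries were the highest of all 15. Tfrc, the transferrin receptor, showed the same order, with 8.75, 7.39 and 8.42 FPKM in G5TM, 40.8 and 43.6 FPKM in G1TM and 2.96 to 17.4 FPKM in DM (-2.23 log2, SE 0.46, adjusted p = 0.002). Vcan, the proteoglycan versican, fell by 2.35 log2 (SE 0.38, adjusted p = 0.00053). Gchfr, Gfra1, Tfrc, Vcan and Col2a1 also did not follow when G3TM replicate 1 was left out, whereas Uchl1, Six2, Mylpf, Hist1h4i, Map1b and Lpp then did. Uchl1, a ubiquitin hydrolase of neurons, rose by 3.07 log2 (SE 0.43, adjusted p = 0.00024). Mylpf, a myosin light chain of skeletal muscle, had 7.10, 5.40 and 25.3 FPKM in G5TM and 0.504 and 0.697 FPKM in G1TM, and was let in through G5TM. Map1b, a microtubule-associated protein, and Lpp, a protein of focal adhesions, fell by 2.80 and 2.55 log2 (SE 0.36 and 0.40, adjusted p = 0.00013 and 0.00044). Fbxo2, a receptor of ubiquitin ligases for glycoproteins, was among the largest rises that followed (4.44 log2, SE 0.35, adjusted p = 5.3e-06).

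Histone genes of the replication-dependent clusters moved both ways. Of 67 listed, 25 passed the filter; 14 were called higher and 3 lower, but 5 and 7 with the length and GC trend removed and 6 and 3 without G1TM replicate 1. Hist1h2ao had 8.17, 4.94 and 5.33 FPKM in G5TM and 172 and 235 FPKM in G1TM (-4.85 log2, SE 0.55, adjusted p = 6.9e-05). Hist1h2ap was listed at 0 in all 3 G5TM libraries and at 18.7 and 21.1 FPKM in G1TM, so no fold is given. Hist1h4i had 46.8, 40.6 and 29.6 FPKM in G5TM and 2.77 and 2.78 FPKM in G1TM (3.38 log2, SE 0.32, adjusted p = 1.9e-05). These genes have near-identical copies among which reads could be split, and their transcripts end without a polyA tail, so their values are uncertain. Of 223 numbered zinc finger genes tested, 105 fell (47.1%), 35 of them following, and 36 rose (16.1%), 24 of them following. All genes tested had 25.5% lower and 29.4% higher. With the length and GC trend removed 48 fell and 28 rose, and the median moved from -0.48 to -0.12 log2. It was -0.38 log2 without G1TM replicate 1. Without G3TM replicate 1, 106 members followed in all. Zfp513 rose, with 19.8, 22 and 24.3 FPKM in G5TM and 5.32 and 5.35 FPKM in G1TM (1.86 log2, SE 0.18, adjusted p = 2e-05).

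The direction of change went with the length and base composition of the genes. The genes tested were cut into 5 equal groups. In the group of the shortest genes 51.4% were called higher in G5TM and 10.5% lower, and in that of the longest 5.5% were higher and 57.1% lower. In the group with the lowest exon GC content 6.2% were higher and 59.2% lower, and in the highest 63.8% were higher and 1.3% lower. The median difference between G3TM and DM ran the same way, 0.56 to -0.44 log2 by length and -0.53 to 0.68 log2 by GC content. The same fit with a smooth trend on length and GC content removed from each library called 4106 genes, 2592 higher and 1514 lower. Ribosomal protein, respiratory chain and mitochondrial ribosomal genes remained mostly higher in that fit, and mitochondrial mRNAs mostly lower, while of 51 matrix genes 16 were lower and 2 higher.

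**Figure D5:**
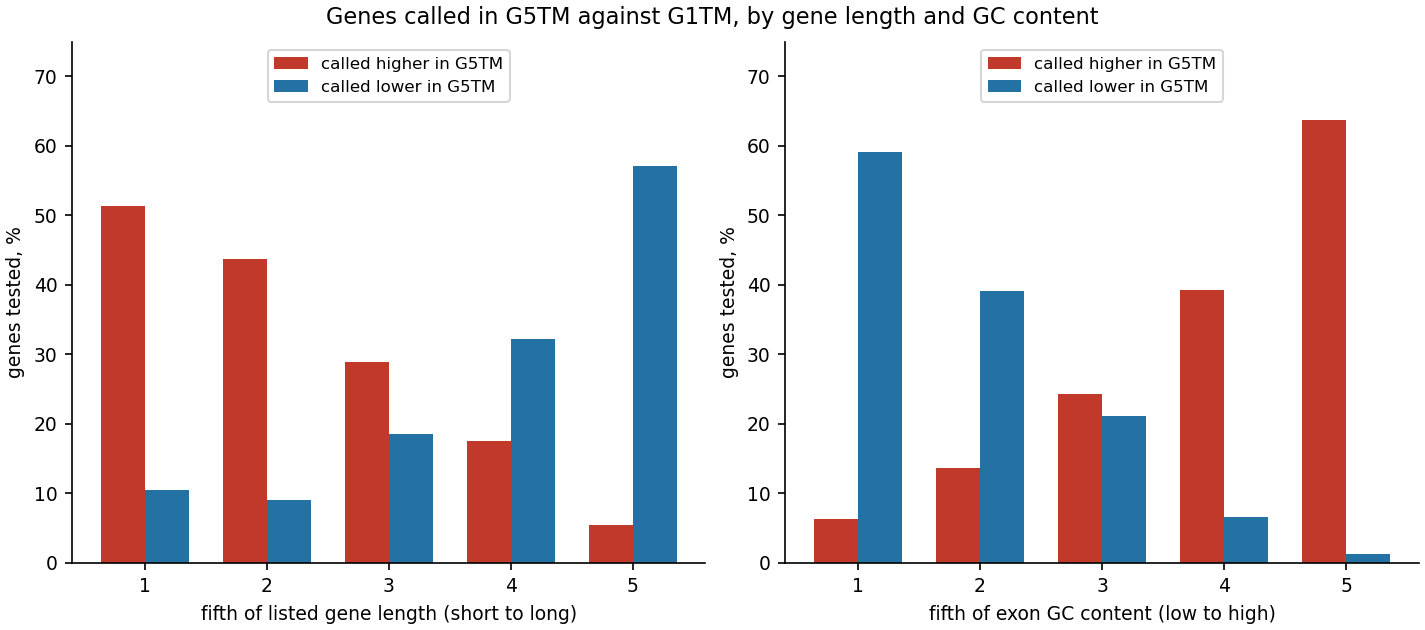
Share of tested genes called higher and lower in G5TM against G1TM, in 5 equal groups of listed gene length (left, short to long) and of exon GC content (right, low to high). Genes called higher make up 5.5% of the longest group and 63.8% of the group richest in GC.

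Few genes were called between the same generations with wild-type p53. The G5DM libraries were spread widely, with replicate 1 at -13.0 and replicates 2 and 3 at -65.6 and -67.9 on the first principal component. Without G5DM replicate 1, 34 genes were called rather than the 7 given next. G5DM against G1DM, which share no library with the comparison and lie on one side of the division, gave 7 called genes by limma (0.0579% of those tested; 525 at an unadjusted p under 0.05). They were Abcg1, higher in G5DM by 1.68 log2, and Tbx4, Ahr, Hoxc10, Gm37416, Gm3226 and Gm3650, lower. The median absolute difference was 0.68 log2 for G5TM against G1TM and 0.15 log2 for G5DM against G1DM. The interaction, (G5TM minus G1TM) minus (G5DM minus G1DM), was called for 2871 genes (23.7%), 1652 positive and 1219 negative. That count ranged from 489 without G1TM replicate 1 to 5369 without G5DM replicate 1. G5TM against G3TM, which lie on the same side and share the G5TM libraries with the comparison, gave 4 called genes (0.0331%; 359 at an unadjusted p under 0.05): Gm10020, Gm3591 and Gm37416 higher and Gm9826 lower in G5TM. Its median absolute difference was 0.13 log2. Gm10020 and Gm3591 passed the filter through G5TM alone, so their calls are a description. These gene models of the Gm series were named for being the few called; their names came after their values were seen.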

How the data were processed

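The authors deposited 1 table of FPKM for 54495 genes in 15 libraries. Tools named in the submitters' processing notes, with no role given, are featureCounts 1.5.0-p3, DESeq2 1.20.0, fastp, CASAVA 1.8 and HISAT2 2.0.5. A genome build is not given in the sources used here; 98.2% of gene coordinates equal those of GENCODE vM21 (GRCm38). Values were analysed as log2(FPKM + 1), with a pseudocount of 1, for genes that reached 1 FPKM in 2 or more of the 5 libraries of G5TM and G1TM. One limma 3.58.1 fit (R 4.3.3) held all 15 libraries as 6 group means, with an intensity trend, two-sided p-values and Benjamini-Hochberg adjustment, called under 0.05. The test was checked on simulated data. FPKM times length gave whole reads for 100% of values within 0.05. An alternative was limma voom on those reads, with library sizes implied by the deposited FPKM. Further alternatives were other pseudocounts, filters and scalings, removal of a length and GC trend (GC known for 99.96% of genes tested) and each library left out. Over 53 gene lists, counts and medians are given without set tests. The lists, their members, and the comparison were chosen with earlier results of these data known.

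Genes were named by a rule: 13 always (Trp53, Wrn, Terc, Cdkn1a, Mdm2, Cdkn2a, Mybl2, Foxm1, Rpl12, Rrp1, Hsp90aa1, mt-Co1 and mt-Rnr2), the 12 strongest rises and the 12 strongest falls of called genes that code for protein and average 5 FPKM or more in either group, the 8 and 8 largest not following the division, the 4 and 4 largest of those also called in the interaction, and up to 3 called members of each list. Python 3.11.15, numpy 2.4.6, pandas 2.3.3 and matplotlib 3.10.9 were used.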

Additional observations from a re-analysis of the deposited data

Results flagged for a closer look

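The results below are listed because the G5TM minus G1TM difference was not the same as the G5DM minus G1DM difference, by the interaction in the limma fit. It was called for 2871 genes. Each value is the first difference minus the second, in log2(FPKM + 1), and each rests on libraries that cross the division on the TM side only. Groups of 2 and 3 libraries were too small for a test of single outlying libraries.

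Among ribosome and rRNA processing genes the values were 6.02 for Rpl12, 3.92 for Rps29, 3.77 for Rps21, 5.43 for Rrp1, 3.94 for Rrp9, 4.21 for Rrp7a, 3.69 for Rrp12, 2.51 for Snhg8 and 2.22 for Eif6. Mitochondrial genes had 3.67 for Atp5k, 3.31 for Ndufa3, 1.93 for Mrps24, 2.12 for Mrpl14, -2.13 for mt-Co1, -2.84 for mt-Nd5, -3.63 for mt-Nd4l, 4.89 for mt-Rnr1 and 3.90 for mt-Rnr2. Proteasome, chaperone and antioxidant genes had 2.22 for Psmb6, 1.85 for Psmb5, 4.42 for Hsp90aa1, 2.35 for Hspb1, 2.78 for Nqo1, 2.96 for Gsta4 and 2.06 for Gstp1. In these classes the sign was that of the G5TM minus G1TM difference in each gene.

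Cell cycle genes had -2.66 for Mki67, -2.37 for Depdc1a, -2.10 for Hells, -2.36 for Ccne2, -1.42 for Usp1, -1.26 for Rbl1, -1.34 for Lin54 and 1.21 for Lin37. Replication, telomere and repair genes had 2.36 for Pold2, -1.69 for Pola1, 1.93 for Nop10, 2.00 for Gar1, -2.54 for Smc2, -2.33 for Stag2, -1.38 for Rad50 and -2.15 for Atm. Genes activated by p53 had 2.63 for Bax, 2.68 for Bbc3, 2.07 for Phlda3, -2.21 for Ccng1 and -1.72 for Pmaip1, and Cdkn2a had 2.69. Here p53 is mutant in one pair of groups and wild type in the other.

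Matrix and growth factor genes had -3.59 for Postn, -1.38 for Col12a1, -3.70 for Lum, -3.02 for Dcn, -2.59 for Vcan, -3.54 for Agtr2 and -2.57 for Ahnak. Cartilage and limb genes had 4.23 for Col2a1, 3.05 for Acan, 3.63 for Foxd1, 3.15 for Prrx2, -1.44 for Prrx1, 2.54 for Id1 and 2.44 for Smad6. Further values were 3.77 for Gchfr, -2.27 for Gfra1, -2.05 for Tfrc, 4.31 for Fbxo2, 2.38 for Uchl1, 2.87 for Krt8, -2.26 for Map1b, -2.48 for Lpp and 1.94 for Zfp513. Among histones, whose near-identical copies make them uncertain, Hist1h2ao had -5.34, Hist1h2ap -4.52 and Hist1h4i 2.33; the value of Hist1h2ap depends on the pseudocount, since it was listed at 0 in G5TM. Rrp7a, Rrp12, mt-Rnr1, Depdc1a, Atm and Hist1h2ap passed the filter on low values through 1 of the 2 TM groups alone, so their values are a description.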

How the results depend on the processing

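Of 96 named genes, 1 changed sign when the length and GC trend was removed (Lin9, 0.26 log2) and 1 under quantile normalization (Trp53, -0.051 log2), while 20 lost their call with the trend removed and 17 without G1TM replicate 1. Rescaling to TPM gave 1939 genes higher and 4928 lower, and removal of the length and GC trend gave 4106 called genes with 1514 lower. The causes were not tested. For G5DM against G1DM the count was 4 with a pseudocount of 0.1, 18 with no filter, 11 under quantile normalization, 1 under TPM and 2 with the replicate block. The interaction count was 1699 with no filter, 1394 with the trend removed and 1887 with the replicate block. Leaving out 1 library at a time gave 3141 to 7340 called genes (1821 to 3921 higher, 1320 to 3419 lower), 1 to 34 for G5DM against G1DM, 489 to 5369 for the interaction and 1921 to 5057 that followed the division; where a group was left with 1 library, that library was assumed to vary like the other groups. Whether replicate numbers pair the libraries could not be told. Deviations of G5TM and G1TM with the same number correlated across genes at -0.188 and -0.335. With 2 G1TM libraries the deviations from their mean mirror each other, so these values cannot decide it. The replicate block gave 5945 called genes, 3172 higher and 2773 lower. voom on recovered reads gave 3548 higher and 3125 lower. Its library sizes were those implied by the deposited FPKM, so it kept that scaling and is no separate check of the balance. They were 0.875, 1.04 and 0.866 of the recovered reads in G5TM and 1.07 and 1.01 in G1TM. With no filter 23814 genes were tested. The low counts behind genes near 1 FPKM, and groups of 2 and 3 libraries, limit the precision.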

Other observations

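Further gene groups are given beside the shares of all genes tested, 29.4% called higher in G5TM and 25.5% lower. Of 20 immediate early genes tested, 8 were higher in G5TM (40%) and 1 lower (5%), 5 of the 8 following the division, and 3 were higher without G1TM replicate 1. Of 22 genes of the type I interferon response tested, 7 were higher and 2 lower, against 1 and 3 under TPM, 1 and 2 with the length and GC trend removed, and 1 and 1 without G1TM replicate 1. Of 31 genes of senescence and its secretory factors, 9 were higher and 3 lower, against 2 and 2 both without G1TM replicate 1 and with the trend removed. Of 33 Hox genes, which hold positional identity, 2 were higher and 1 lower, against 0 and 1 under TPM, 1 and 2 with the trend removed, and 0 and 0 without G1TM replicate 1. Of 24 glycolysis genes 5 were higher and 5 lower, against 1 and 8 under TPM, 3 and 9 under quantile normalization, and 2 and 5 without G1TM replicate 1. Of 25 genes of cholesterol synthesis and LDL uptake, 2 were higher and 4 lower, against 5 and 1 without G5TM replicate 3, and 0 and 0 without G1TM replicate 1. Of 8 nuclear long noncoding RNAs, 0 were higher and 3 lower, against 0 and 6 under TPM, 0 and 1 with the trend removed, and 0 and 2 without G1TM replicate 1.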
